A study of Homo sapiens with 24 samples.

Results

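The miRNAs described here are those whose number lies between 4000 and 4999, a block of late registered human miRNAs, in small RNA libraries of the OV90 cell line. Of the 2656 mature miRNAs in the count table, 499 carried such a number. A summed count of at least 24 over the 24 libraries was then required, and miR-4488 and miR-4516 were left out by name, which gave 106 members. Of the other rows, 225 had no count and 166 had fewer counts than required. The members were thus selected on their summed counts, so a high total is no finding here. OV90 is an established epithelial ovarian cancer cell line. The cells carried a doxycycline-inducible shRNA, which was a negative control (shNeg, called wild type in the sample labels), an shRNA against RELA (shRELA) or an shRNA against RELB (shRELB). Each line was grown as an adherent culture in RPMI with tetracycline-free serum or as spheroids in ultra-low attachment plates with serum replacement, EGF and FGF. All 6 groups, the controls included, were given 1 µg/ml doxycycline for 72 h, and each had 4 replicates. The 2 cultures differed in medium as well as in attachment, so these cannot be told apart, and all values come from 1 cell line.

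A miRNA is cut from a hairpin in its primary transcript, first by Drosha and then by Dicer, and 1 strand is loaded into an Argonaute protein. Its seed, bases 2 to 8, pairs with target mRNAs and lowers their stability or translation. Numbers were given in the order of registration, so miRNAs of this block were mostly found by deep sequencing and tend to be scarce, and some share their sequence with other abundant RNAs. RELA and RELB are NF-κB subunits of the canonical and the alternative pathway. Their mRNAs are not read in small RNA libraries, so silencing could not be checked in these data.

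Mature sequences from RefSeq (GRCh38.p14) were matched by name for 93 of the 106 members (87.7%). They were not matched for miR-4286, miR-4326, miR-4485-5p, miR-4508, miR-4659a-3p, miR-4660, miR-4661-5p, miR-4662a-5p, miR-4664-3p, miR-4664-5p, miR-4726-5p, miR-4748 and miR-4783-3p. In the sequences below the seed is in capitals and all are written 5′ to 3′. The first set holds the members that differed between the cultures in all 3 shRNA lines, with the other arm of the miR-4652 hairpin for comparison.
miR-4521: gCUAAGGAaguccugugcucag
miR-4652-3p: gUUCUGUUaacccauccccuca
miR-4652-5p: aGGGGACUgguuaauagaacua
miR-4429: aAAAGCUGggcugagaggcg
miR-4485-3p: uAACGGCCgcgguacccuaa
miR-4525: gGGGGGAUgugcaugcugguu
miR-4492: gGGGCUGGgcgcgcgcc

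The second set holds members that differed with a knockdown, followed by miR-4749-5p, which has the same seed as miR-4706.
miR-4683: uGGAGAUCcagugcucgcccgau
miR-4713-5p: uUCUCCCAcuaccaggcuccca
miR-4804-5p: uUGGACGGuaagguuaagcaa
miR-4706: aGCGGGGAggaagugggcgcugcuu
miR-4749-5p: uGCGGGGAcaggccagggcauc

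The third set is shown because its members match other kinds of RNA, or, for miR-4458, carry the seed of the let-7 family.
miR-4284: gGGCUCACaucaccccau
miR-4448: gGCUCCUUggucuaggggua
miR-4454: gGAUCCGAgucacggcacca
miR-4458: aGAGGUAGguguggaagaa

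The 93 sequences were 17 to 25 bases long (median 22), and their G and C content ran from 27.3% to 94.1% (median 54.5%). Of the 93, 6 shared a seed with an early miRNA (a number of up to 3 digits) that had a sequence in the RefSeq list. Among these 6, miR-4429 has the seed of miR-320b, miR-320c and miR-320d, and miR-4458 that of let-7 and miR-98-5p. The list lacked some miRNAs, so the 6 are a lower limit and other early miRNAs may share these seeds. Within the members, miR-4492 and miR-4498 shared a seed, as did miR-4706 and miR-4749-5p. In the annotation, 49 of the 93 loci lay in an intron of a gene on the same strand, 23 in an exon, 10 antisense to a gene and 11 between genes. In GRCh38, 79 sequences had 1 exact site and 14 had more, up to 4, so reads of the latter could have come from more than 1 locus.

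Library totals ran from 3797175 to 8283549 counts in adherent culture and from 959141 to 3580931 in spheroid culture. A count of 0 allows up to 3 counts, worth 0.362 to 0.790 CPM (counts scaled to the library total) in adherent and 0.838 to 3.13 CPM in spheroid libraries. These limits and all intervals cover counting error only. Spheroid shNeg replicate 1 stood apart. It had a count for 28 members where the other 3 libraries of its group had counts for 59 to 70, and its group had the lowest rank correlations between replicates (0.761 to 0.886 over the miRNAs tested). Values without it are given beside the named results that it moved most. All 7 epithelial marker miRNAs were detected, with a summed level of 2486 to 16340 TMM-scaled CPM. The 7 blood cell marker miRNAs, also all detected, summed to 24.1 to 57.0 in adherent libraries, 431 to 725 with spheroid shNeg, 72.1 to 117 with spheroid shRELA and 164 to 226 with spheroid shRELB. The part of these in any result was not tested.

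The members were scarce. Levels below are CPM scaled by TMM, a normalization that trims extreme miRNAs, listed in the order of replicates 1 to 4. The mean over the 24 libraries was at least 10 CPM for 9 members, 1 to 5 for 40 and below 1 for 53, with a median of 1.03. The 5 most abundant members, miR-4286, miR-4521, miR-4448, miR-4326 and miR-4485-3p, took 61.9% of the members' 44208 counts, and miR-4286 alone took 20.9%. Only 12 members had a count in all 24 libraries.

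**Figure D1:**
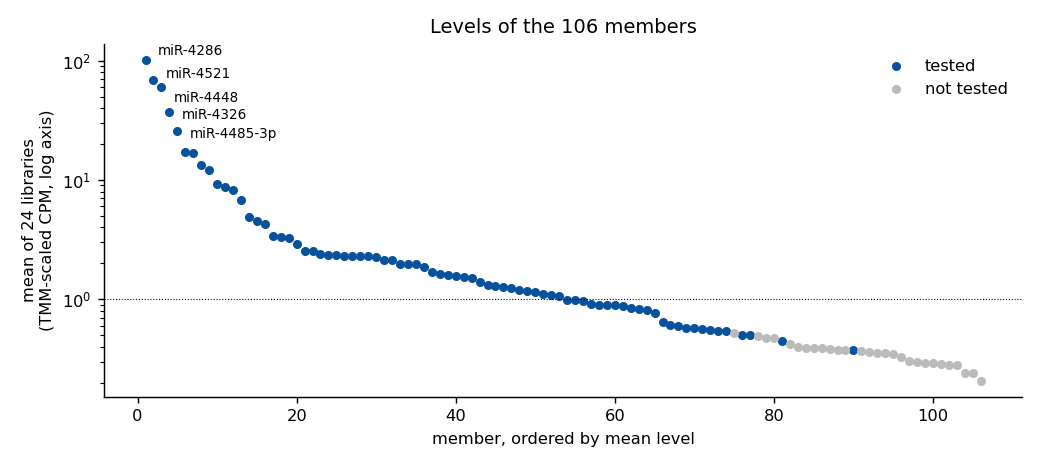
Mean level of each of the 106 members over the 24 libraries (TMM-scaled CPM, log axis), in order of level. The dotted line marks 1 CPM, points are blue where the member was tested and grey where it was not, and 53 members lie below the line.

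The 106 members together took 0.0409% ± 0.0019 (SD, n = 4) of all counts with adherent shNeg, 0.0485% ± 0.0026 with adherent shRELA and 0.0462% ± 0.0020 with adherent shRELB. In spheroids the share was 0.0812% ± 0.0033 with shNeg, 0.0452% ± 0.0036 with shRELA and 0.0413% ± 0.0023 with shRELB. Each of the 4 spheroid shNeg libraries, at 0.0773% to 0.0852%, was above each of the other 20. Without miR-4286 the spheroid shNeg share was 0.0625% ± 0.0069, and the other groups stood at 0.0315% to 0.0378%. The 2 rows left out by name were near 0 in adherent culture, at 0 to 0.407 CPM on average, and reached 94.2 (miR-4488) and 660 (miR-4516) with spheroid shNeg. In a bulk library, fewer cells of a type and less RNA per cell cannot be told apart, and a share of counts can also move with the other miRNAs in the library.

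**Figure D2:**
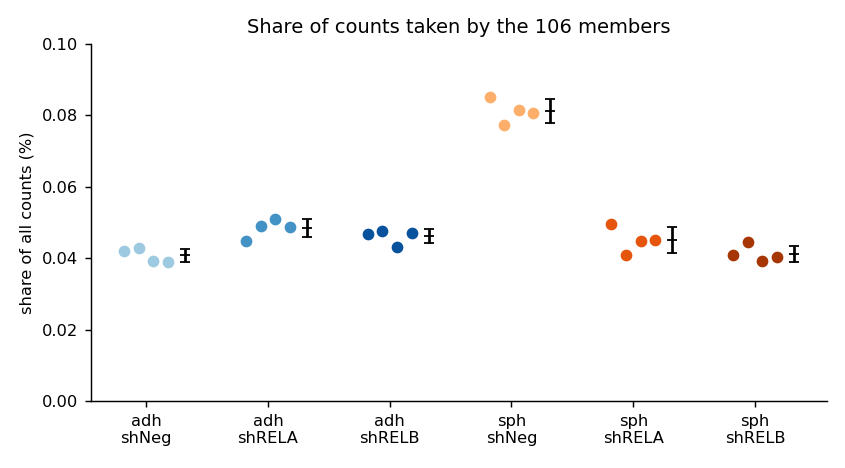
Share of all counts (%) taken by the 106 members in each library, by group (adh, adherent; sph, spheroid). Points are libraries in the order of replicates 1 to 4, and bars give the mean and SD of 4. The spheroid shNeg libraries lie between 0.0773% and 0.0852%, above the other 5 groups.

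Tests covered the 905 miRNAs that reached 1 CPM in 4 or more libraries, of which 78 were members. The 28 other members were too low for the filter. Since 1 CPM was 0.959 reads in the shallowest library and 8.28 in the deepest, low members reached the filter more easily in spheroid libraries. Of the 78, 39 passed through either culture, 29 through spheroid libraries alone, 8 through adherent libraries alone and 2 only with the libraries of both cultures. A call needed a false discovery rate (FDR) over all 905 below 0.01 and a fold change above 2 in edgeR's quasi-likelihood test. Folds against a group with 1 to 3 counts are ratios of the groups' summed counts with a 95% counting interval. Folds against a group with no count are given as lower limits, with that group set at 3 counts in all. The other group's summed count was taken as observed, so its counting error is not covered by these limits.

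Culture was the contrast in which most members were called. With shNeg, 20 were higher in spheroids and 5 lower, beside 42.2% called among all 905 (21.3% higher and 20.9% lower). These 25 are 32.1% of the 78, below the background share, with more of them on the higher side. Of the 20 higher members, 13 had passed the filter through spheroid libraries alone, so the filter itself favored a higher value there. Of the 5 lower members, 2 (miR-4652-3p and miR-4473) had passed through adherent libraries alone, so it favored a lower value in spheroids for these, with every shRNA. With shRELA, 12 were higher and 3 lower, beside 32.6% of all miRNAs called (16.8% higher and 15.8% lower). With shRELB, 6 were higher and 5 lower, beside 25.0% (13.6% higher and 11.4% lower). Several of the higher members with shRELA and shRELB, among them miR-4525 and miR-4492, had also passed through spheroid libraries alone, so the same limit holds. The median log2 difference of the members between cultures was 0.84 with shNeg, 0.42 with shRELA and 0.37 with shRELB, against -0.26, 0.07 and -0.0029 over all 905. With miRNAs that had no count in a group set at their limit, or dropped where both groups were that low, the members' medians were 0.72, 0.35 and 0.48 and those of all miRNAs -0.29, 0.06 and -0.0018. The members' medians include the 29 that passed through spheroid libraries alone and the 8 through adherent libraries alone, so the filter favored higher values in them too. In all, 33 members were called in at least 1 of the 3 culture comparisons. Of these 7 were called in all 3, 4 in 2 and 22 in 1. Such counts were not made over all 905, so they have no background share and show no trait of the members. The 3 comparisons have no library in common, but they share 1 fit with its filter, scaling and estimate of spread, so they are not fully independent.

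miR-4521, the second most abundant member, fell in spheroids with every shRNA. Its hairpin lies between genes at chr17:8186945-8187004 (+). With shNeg it stood at 113, 132.8, 112 and 109 CPM in adherent cells and at 0, 10.7, 23.6 and 19.0 in spheroids. The groups were far apart, and the library at 0 was the spheroid replicate that stood apart. The log2 fold change was -3.09 ± 0.40 (SE; FDR 6.20e-08), -2.68 without that library and -3.70 without spheroid replicate 3. With shRELA it was 154, 117, 79.2 and 196 CPM in adherent cells and 24.8, 28.4, 31.8 and 19.4 in spheroids (-2.39 ± 0.37, FDR 3.67e-06). With shRELB it was 116, 119, 91.8 and 81.0 against 16.3, 23.3, 25.6 and 18.4 (-2.28 ± 0.38, FDR 9.56e-06). No library of 1 culture reached the range of the other.

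miR-4652-3p was the other member that was lower in spheroids throughout. It had passed the filter through adherent libraries alone, so it could hardly have been called higher. Its hairpin, at chr7:93716928-93717005 (+), lies in an intron of GNGT1, which encodes a G protein gamma subunit. The adherent shNeg libraries held 39, 28, 54 and 25 counts (4.30 to 9.68 CPM) and the spheroid libraries 0, 3, 0 and 0. The summed counts were 13.9-fold lower in spheroids (95% counting interval 4.66 to 68.2; FDR 0.000172). With shRELA the difference was -3.07 ± 0.67 (FDR 0.000295, and -4.48 without spheroid shRELA replicate 3) and with shRELB -3.18 ± 0.72 (FDR 0.000586). The other arm, miR-4652-5p, was not called. It stood at 16.4, 14.9, 17.9 and 17.0 CPM with adherent shNeg and at 19.8, 6.87, 15.4 and 4.91 with spheroid shNeg, and these groups overlapped (-0.48 ± 0.35, FDR 0.236).

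Both arms were members for 9 hairpins, so their balance could be described, with no test. For miR-4652 the 3p arm gave 23.3% of the reads of both arms in adherent libraries (13.3% to 35.1% per library) and 3.96% in spheroid libraries (median 1.32%, up to 25%). For miR-4640 the 3p share was 77.9% in adherent and 28.2% in spheroid libraries, but from 140 and 71 reads in all. The 3p arm of miR-4485 made up 99.1% and 96.0%, while miR-4713 and miR-4804 gave mainly the 5p arm in both cultures (3p share 3.43% and 7.26%, and 6.89% and 10.8%). For the remaining 4 hairpins the 3p share of single spheroid libraries ran from 0% to 100%, 0% to 61.1% or 14.3% to 100%.

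Of the members that rose in spheroids, miR-4429 was the most even. Its mature sequence lies at chr2:11540652-11540671 (-), antisense to GREB1, an estrogen-responsive gene. With shNeg it went from 1.33, 1.33, 0.90 and 2.06 CPM in adherent cells to 18.3, 16.04, 14.9 and 11.2 in spheroids. With shRELA the values were 1.98, 1.34, 1.14 and 1.82 against 13.1, 17.3, 17.0 and 13.7. With shRELB they were 1.00, 2.34, 1.03 and 2.01 against 21.1, 18.3, 17.2 and 12.9. The groups did not overlap in any line, and the log2 fold changes were close to each other, at 3.39 ± 0.39 (FDR 3.91e-09), 3.24 ± 0.37 (FDR 1.21e-08) and 3.44 ± 0.37 (FDR 4.48e-09).

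miR-4485-3p rose most in the control line. Its hairpin lies between genes at chr11:10508270-10508326 (-). With shNeg it went from 4.81, 3.73, 8.07 and 7.22 CPM in adherent cells to 81.4, 71.8, 100.5 and 87.0 in spheroids (log2 fold change 3.82 ± 0.39, FDR 4.73e-10). With shRELA it went from 5.45, 7.63, 3.05 and 17.7 to 29.99, 30.5, 24.6 and 31.5 (1.77 ± 0.37, FDR 0.000191, and 2.42 without adherent replicate 4). With shRELB it went from 3.85, 3.98, 2.57 and 8.26 to 27.4, 23.9, 16.7 and 20.9 (2.25 ± 0.39, FDR 1.92e-05). The cultures did not overlap in any line. Its other arm, miR-4485-5p, chosen after its values were seen, had 2 counts with adherent shNeg and 29 with spheroid shNeg, 20 of them in replicate 1 and none in replicate 2.

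miR-4508 was higher in spheroids in all 3 lines, and unevenly so with shNeg. It stood at 0.66, 0.80, 1.79 and 0.34 CPM with adherent shNeg and at 79.2, 27.5, 15.9 and 9.83 with spheroid shNeg. The groups did not overlap, and the library with the highest value was the one that stood apart (log2 fold change 5.14 ± 0.65, FDR 3.29e-08, 4.24 without that library and 5.74 without adherent replicate 3). The differences with shRELA and shRELB were 3.38 ± 0.67 (FDR 9.56e-05) and 3.87 ± 0.66 (FDR 1.53e-05, and 4.86 without adherent shRELB replicate 4).

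miR-4525 and miR-4492 were almost absent from adherent libraries. miR-4525, from an intron of RAB40B at chr17:82668233-82668307 (-), had no count in the 4 adherent shNeg libraries and 36, 10, 14 and 8 in the spheroid shNeg libraries, which is at least 79.4-fold higher (FDR 1.63e-08), or at least 48.2-fold without replicate 1 (FDR 2.06e-08). Its spheroid values were 26.4, 7.64, 7.18 and 5.61 CPM, the first again from replicate 1. With shRELA it rose by 3.80 ± 0.81 on the log2 scale (FDR 0.000278), and with shRELB from 1 to 27 counts, a 53.9-fold ratio (95% counting interval 8.89 to 2208; FDR 7.85e-05). miR-4492, antisense to BCL9L at chr11:118910708-118910787 (+), had 1 count with adherent shNeg and 0, 4, 12 and 1 with spheroid shNeg, so those groups overlapped, and its call was lost without spheroid replicate 3. With shRELB it had 0, 0, 0 and 1 counts in adherent cells and 9, 13, 12 and 14 in spheroids, a 95.9-fold ratio (16.4 to 3865; FDR 8.09e-05). With shRELA it was at least 17.8-fold higher (FDR 0.000186), from no count to 3, 9, 0 and 9.

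**Figure D3:**
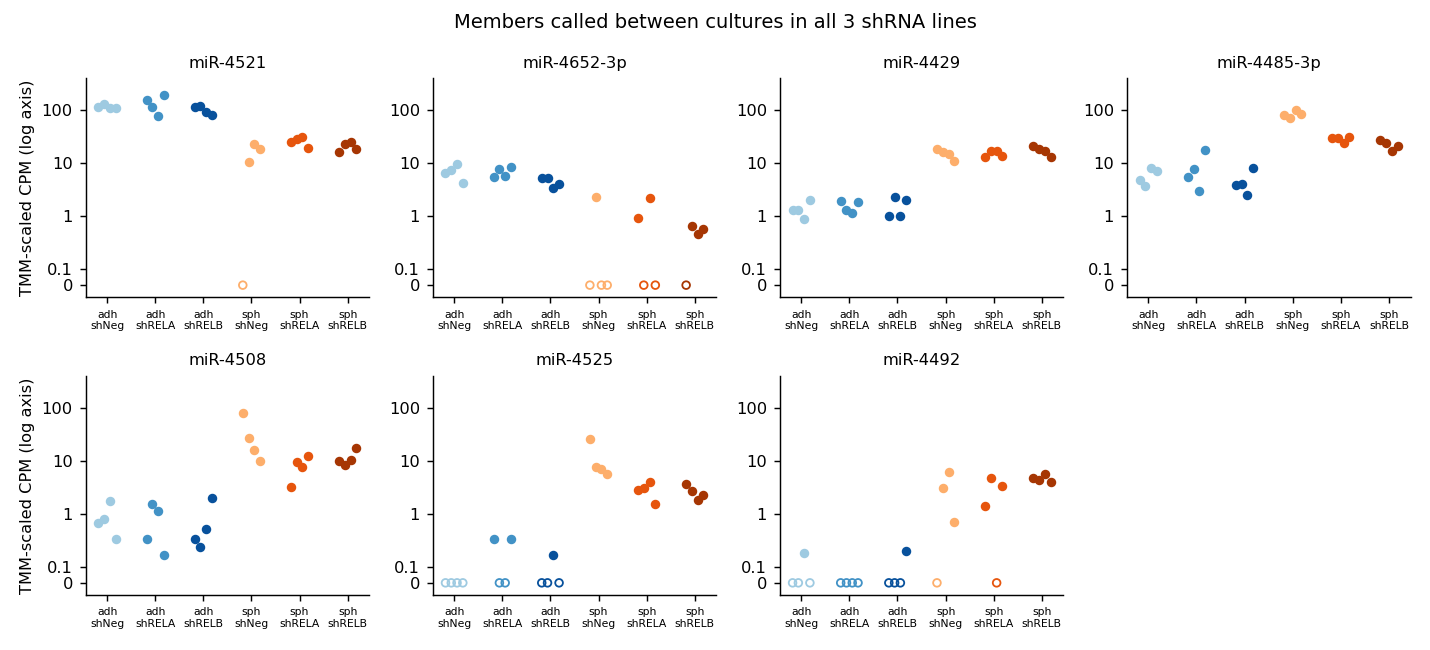
Level of the 7 members called between the cultures with shNeg, shRELA and shRELB (TMM-scaled CPM, log axis; open circles at the foot are libraries with no count). Points are libraries in the order of replicates 1 to 4 (adh, adherent; sph, spheroid). miR-4521 and miR-4652-3p are lower in spheroids and the other 5 are higher.

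Other members were called in 1 or 2 lines. miR-4448, the third most abundant, lies in an intron of the pseudogene RPSAP31 at chr3:183886860-183886879 (+). With shNeg it rose from 39.0, 28.0, 29.2 and 31.97 CPM to 181, 70.3, 95.4 and 74.4 without overlap (log2 fold change 1.71 ± 0.26, FDR 1.38e-06, and 1.32 without spheroid replicate 1). With shRELA and shRELB its differences of 0.81 ± 0.26 (FDR 0.00969) and 0.55 ± 0.26 (FDR 0.0844) were no calls. miR-4683, in an exon of FZD8 (a Wnt receptor gene) at chr10:35641172-35641252 (-), rose by 2.09 ± 0.39 with shNeg (FDR 2.84e-05) and by 3.0 ± 0.39 with shRELA (FDR 1.37e-07). With shRELB, where its adherent level was already higher, the difference was 0.62 ± 0.35 (FDR 0.151). miR-4440, from an intron of the histone deacetylase gene HDAC4, had 1.49, 1.60, 0.90 and 1.72 CPM with adherent shNeg and 0, 9.16, 14.9 and 12.6 with spheroid shNeg (2.69 ± 0.55, FDR 9.08e-05), and only the spheroid library that stood apart lay below the adherent values.

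miR-4449, in an exon of the noncoding RNA gene DANCR, was higher in spheroids with shNeg (3 against 30 summed counts, a 35.02-fold ratio, 95% counting interval 10.9 to 179, FDR 9.997e-05). With shRELB it had 1 against 28 counts (FDR 0.000771), 19 of the 28 in replicate 4, and the call was lost without that library. miR-4706, from an intron of FNTB, had 0, 0, 0 and 1 counts with adherent shNeg and 52, 4, 4 and 3 with spheroid shNeg. That is a 221-fold ratio (38.2 to 8850; FDR 8.82e-06), but most of it came from 1 library at 38.1 CPM beside 2.05 to 3.05 in the others. Without that library the ratio was 49.7-fold (7.23 to 2141) and the call was kept (FDR 0.000803). miR-4749-5p, which shares its seed and was chosen after its values were seen, had 22 of its 28 spheroid shNeg counts in the same replicate, and its call was lost without it. miR-4467, in an exon of LRWD1, was called with shNeg (3.03 ± 0.88, FDR 0.00386) but not without spheroid shNeg replicate 1 or adherent shNeg replicate 1, 2 or 4. miR-4449, miR-4706, miR-4749-5p and miR-4467 had all passed the filter through spheroid libraries alone, so they could hardly have been called lower.

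Lower in spheroids were miR-4473, from an intron of MLLT3, and miR-4742-3p, from an intron of WDR26. Of these, miR-4473 had passed the filter through adherent libraries alone, so it could hardly have been called higher. miR-4473 had 14, 6, 9 and 12 counts with adherent shNeg and none with spheroid shNeg, at least 3.90-fold lower (FDR 0.00161), and with shRELB 9, 6, 4 and 11 against none, at least 5.01-fold lower (FDR 0.00127). miR-4742-3p had 21, 11, 11 and 16 counts against 0, 0, 1 and 0 with shNeg (16.8-fold lower, 95% counting interval 2.91 to 677, FDR 0.00141). With shRELA and shRELB it was not called, at -1.37 ± 0.70 (FDR 0.101) and 0.18 ± 0.59 (FDR 0.815). miR-4660 was lower with shNeg at 48 against 1 counts (FDR 0.00334), a call lost without spheroid shNeg replicate 1 or 3. miR-4326, the fourth most abundant member, was called with shRELB alone. It fell from 48.7, 53.6, 40.25 and 40.7 CPM to 11.1, 23.3, 14.4 and 15.5 (-1.49 ± 0.38, FDR 0.00206), a call lost without spheroid shRELB replicate 1.

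The remaining named calls were in single comparisons at low counts or near the threshold. miR-4454 was lower in spheroids with shRELA (-1.25 ± 0.39, FDR 0.00879), a call lost without any 1 of 4 libraries (adherent shRELA replicates 1 and 4, spheroid shRELA replicates 1 and 2). miR-4783-3p was higher with shNeg (1.41 ± 0.43, FDR 0.00577), lost without adherent shNeg replicate 1 or 2 or spheroid shNeg replicate 2 or 4. With shRELA, miR-4437 went from no count to 0, 11, 2 and 6, at least 16.1-fold higher (FDR 0.000634). miR-4689 went from 1 to 15 counts (1, 4, 0 and 10 per spheroid library, FDR 0.00504) and miR-4769-5p from 1 to 12 (4, 3, 0 and 5, FDR 0.00633). Both calls could be lost by leaving out 1 library. The call of miR-4689 was lost without adherent shRELA replicate 1, 3 or 4, and that of miR-4769-5p without any of replicates 1, 2 and 4 of either culture. Without spheroid shRELA replicate 2 or 4, miR-4437 and miR-4689 no longer passed the filter. miR-4458, which carries the let-7 seed, was called in no comparison. It held 5.20 to 6.67 CPM with adherent shNeg and 0, 0, 6.16 and 3.51 with spheroid shNeg (-1.13 ± 0.67, FDR 0.145).

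Base content was set beside the culture difference as a description. Of the 11 members with over 70% G and C, all tested, 6 were higher and none lower in spheroids with shNeg, with a median log2 difference of 4.22 (4.03 with members without a count in a group at their limit). All 6 had passed the filter through spheroid libraries alone, with no adherent library at 1 CPM, so they could hardly have been called lower, and their count supports no relation. Without spheroid shNeg replicate 1, 3 of the 11 were called higher and the median was 1.66 (1.67 over the 10 left at the limits). The calls lost were those of miR-4479, miR-4749-5p and miR-4758-5p, and miR-4758-5p, which had 16 counts in replicate 1 and none in the other 3, went to -1.30. miR-4479 and miR-4758-5p are named here after their values were seen. Over all miRNAs tested, 40 of the 63 in that class were higher (63.5%) and 1 lower, with a median of 3.20 (3.24 over the 58 left once those low in both groups were dropped), and without that library 33 were higher and 1 lower (median 2.48). Of the 12 tested members under 50%, none was higher and 2 were lower (median -0.70), and of all 287 in that class 9 were higher and 116 lower (median -1.58, and -1.4 at the limits). Without that library 3 of these 12 members were higher and 2 lower (median -0.65). The 42 tested members between 50% and 70% had 11 higher and 2 lower, and of all 445 in that class 118 were higher (26.5%) and 49 lower. Spearman's rho between G and C content and the log2 difference was 0.49 over 65 members and 0.56 over 795 miRNAs tested (0.41 over 64 and 0.56 over 792 without that library), a description across miRNAs that share the same libraries. The rank correlation of the members was 0.29 with shRELA and 0.42 with shRELB. Base content was not put into the fits, and its part in the calls was not tested.

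**Figure D4:**
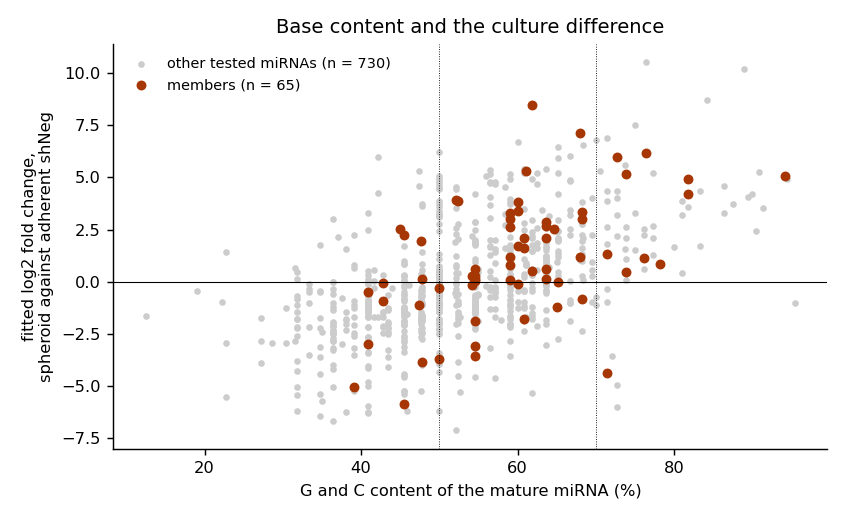
Fitted log2 fold change of spheroid against adherent shNeg by G and C content of the mature miRNA (%), for 65 members (brown) and 730 other tested miRNAs (grey). Dotted lines at 50% and 70% bound the classes of the text, and points with no count in a group are fitted values, not limits. Members over 70% have a median of 4.22 and those under 50% of -0.70, beside 3.20 and -1.58 for all tested miRNAs, and the first falls to 1.66 without spheroid shNeg replicate 1.

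Of the 93 sequences, 5 matched another kind of annotated RNA with at most 1 mismatch, and reads of such fragments would be counted under the miRNA name. miR-4284 is found letter for letter in the mitochondrial tRNA gene MT-TF, miR-4485-3p in the mitochondrial 16S rRNA gene MT-RNR2 and miR-4492 in the 45S pre-ribosomal RNA genes. miR-4448 differs by 1 base from proline tRNAs and miR-4454 by 1 base from histidine tRNAs. With shNeg, 4 of these 5 were called higher in spheroids and miR-4454 was not called (-1.22 ± 0.44, FDR 0.0181). Of the 4, miR-4284 and miR-4492 had passed the filter through spheroid libraries alone, so they could hardly have been called lower. miR-4284, chosen after its values were seen, had 0, 0, 2 and 2 counts in adherent and 23, 4, 17 and 9 in spheroid shNeg libraries (5.32 ± 1.02, FDR 3.79e-05). Of the 60 tested members with a sequence and no such match, 13 were higher and 4 lower. Matches were not sought for the other miRNAs tested, so no background share is given. These counts cannot tell miRNA from fragment.

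Few members were called with a knockdown. RELA knockdown in adherent cells gave no call among the 78, beside 3.76% of all 905 (1.1% higher and 2.65% lower). By edgeR 4 members had an unadjusted p under 0.05, and DESeq2 and limma also made 0 calls. RELB knockdown in adherent cells gave 1 call (1.28% of the members, beside 7.07% of all, with 3.54% in each direction). In spheroids, RELA knockdown gave 5 calls, all lower (6.41%, beside 15.1% of all, 7.51% higher and 7.62% lower), and RELB knockdown gave 6, of which 2 were higher and 4 lower (7.69%, beside 13.4% of all, 7.29% higher and 6.08% lower). The members' share was below the background in each. By edgeR, 6 members in adherent RELB knockdown and 25 in each spheroid knockdown had an unadjusted p under 0.05. That count was not made over all 905. The members are scarce, and the part of their low counts in the lower share of calls was not tested. Within a culture the 2 knockdowns have their shNeg controls in common, so their changes are not independent.

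miR-4683 was the member called in adherent cells. It stood at 3.65, 2.13, 3.59 and 4.81 CPM with shNeg and at 13.6, 11.5, 9.59 and 12.1 with shRELB. The groups did not overlap, and the log2 fold change was 1.69 ± 0.37 (FDR 0.00117). With shRELA it was 3.47, 1.72, 1.90 and 3.31 (-0.45 ± 0.40, FDR 0.620). In spheroids the RELB difference was 0.23 ± 0.37 (FDR 0.680), and the difference between the cultures, -1.46 ± 0.52, missed the threshold (FDR 0.0507).

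miR-4804-5p, from an intron of TNPO1 (a nuclear import receptor gene), moved alike with RELB knockdown in both cultures. In adherent cells it went from 14.6, 9.60, 9.86 and 12.7 CPM to 23.1, 24.8, 20.0 and 25.6, without overlap. In spheroids it went from 13.2, 11.5, 9.23 and 11.2 to 27.4, 28.3, 21.9 and 18.6, again without overlap. The log2 fold change was 0.99 ± 0.26 (FDR 0.00761) in adherent cells, just short of the fold needed for a call, and 1.09 ± 0.29 (FDR 0.00421) in spheroids, where the fold also lay near that limit. The call in spheroids was lost in 11 of 17 alternatives, among them the 5 that left out spheroid shRELB replicate 1 or 2 or spheroid shNeg replicate 2, 3 or 4. The difference between the cultures was 0.10 ± 0.39 (FDR 0.876).

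miR-4286, the most abundant member, was lower with both knockdowns in spheroids. Spheroid shNeg libraries held 117, 151, 156 and 168 CPM, shRELA libraries 109, 60.4, 73.4 and 89.7, and shRELB libraries 52.7, 57.9, 47.0 and 55.6. Neither knockdown overlapped the control. The RELB difference was -1.47 ± 0.21 (FDR 1.21e-06). The RELA difference of -0.83 ± 0.21 (FDR 0.00212) did not reach a fold of 2. In adherent cells the control held 116, 97.1, 94.7 and 95.4 CPM, with 132, 132.8, 152 and 140 under shRELA (0.47 ± 0.20, FDR 0.182) and 81.0, 91.2, 65.1 and 96.3 under shRELB (-0.27 ± 0.20, FDR 0.432). The changes differed between the cultures by -1.30 ± 0.29 for RELA (FDR 0.00177) and -1.20 ± 0.29 for RELB (FDR 0.00324). The RELB difference between cultures no longer passed when adherent shRELB replicate 4, spheroid shRELB replicate 3 or either of spheroid shNeg replicates 2 and 4 was left out.

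miR-4485-3p was lower with both knockdowns in spheroids as well. Against 71.8 to 100.5 CPM with shNeg it held 24.6 to 31.5 with shRELA (-1.55 ± 0.36, FDR 0.00119) and 16.7 to 27.4 with shRELB (-1.94 ± 0.36, FDR 0.000106). In adherent cells the 3 groups overlapped, at 3.73 to 8.07, 3.05 to 17.7 and 2.57 to 8.26. The RELA change differed between the cultures by -2.04 ± 0.52 (FDR 0.00622), a call lost when any 1 of 8 libraries was left out (adherent shNeg replicates 1 and 2, adherent shRELA replicate 4, spheroid shNeg replicate 3 and all 4 spheroid shRELA replicates). For RELB it was -1.56 ± 0.53 (FDR 0.0393).

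miR-4713-5p lies in an intron of MIR4713HG at chr15:51242190-51242264 (+), antisense to the aromatase gene CYP19A1, and its RELB response had opposite signs in the cultures. In adherent cells it went from 7.295, 6.13, 8.97 and 8.25 CPM with shNeg to 15.9, 12.4, 9.93 and 11.3 with shRELB, without overlap, a difference of 0.69 ± 0.34 that was no call (FDR 0.204). In spheroids it went from 8.07, 5.35, 9.23 and 9.83 to 0.53, 3.33, 3.26 and 2.29, without overlap (-1.74 ± 0.43, FDR 0.00256). The difference between the cultures was -2.43 ± 0.55 (FDR 0.00197). Spheroid against adherent shRELB was accordingly lower (-2.34 ± 0.40, FDR 1.60e-05).

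**Figure D5:**
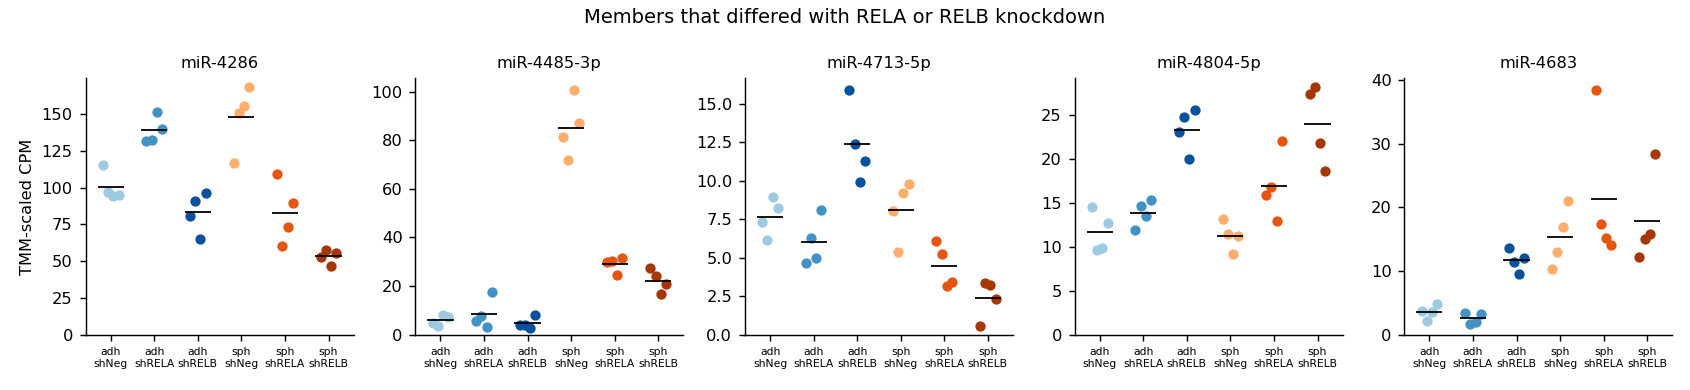
Level (TMM-scaled CPM) of 5 members in each library, by group (adh, adherent; sph, spheroid). Points are libraries in the order of replicates 1 to 4 and lines are means. In spheroids miR-4286, miR-4485-3p and miR-4713-5p are lower and miR-4804-5p is higher with shRELB than with shNeg; in adherent cells miR-4683 is higher with shRELB, at 9.59 to 13.6.

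The other knockdown calls rested on few counts or on single libraries. miR-4706 was lower in spheroids with shRELA (63 against 2 summed counts, FDR 0.000744) and shRELB (63 against 12, FDR 0.00793), and neither was called without spheroid shNeg replicate 1. The shRELB call was lost too without spheroid shRELB replicate 1, 2 or 3. miR-4706 reached 1 CPM in 5 spheroid libraries and no adherent one, and all 4 spheroid shNeg libraries were among these. The filter thus favored a higher value in that control. miR-4508 was lower with shRELA (33.1 against 8.22 CPM on average, -1.99 ± 0.55, FDR 0.00601), with overlap, and was not called without spheroid shNeg replicate 1 (-1.08) or spheroid shRELA replicate 1, 2 or 3. miR-4467 had 21 counts with spheroid shNeg against 2 with shRELA (FDR 0.00669) a call that needed that control's replicate 1 and each of spheroid shRELA replicates 2, 3 and 4. miR-4783-3p was lower with shRELA, at 6.09, 3.15, 3.13 and 4.18 CPM against 4.40, 25.2, 8.72 and 17.5 with overlap (-1.73 ± 0.47, FDR 0.00510), a call that needed each of spheroid shRELA replicates 2, 3 and 4 and of spheroid shNeg replicates 2 and 4. miR-4660 was higher with shRELB, at 4, 10, 7 and 6 counts against 0, 1, 0 and 0 (a 15.5-fold ratio, 95% counting interval 2.55 to 634, FDR 0.00689), a call that needed each of spheroid shRELB replicates 2 and 3 and of spheroid shNeg replicates 1, 3 and 4.

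The test of the difference in knockdown response between the cultures called 2 members for RELA (miR-4286 and miR-4485-3p, beside 7.62% of all 905, 4.31% higher and 3.31% lower) and 2 for RELB (miR-4286 and miR-4713-5p, beside 8.51%, 4.64% higher and 3.87% lower). In all 4 the change was more negative in spheroids.

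Beside other number ranges, the members resembled the still later miR-6715 to miR-6895 rows more than the early ones in level. Of the rows with a summed count of at least 24, the median level was 1.03 CPM over the 106 members, 1.01 over the 132 later rows and 10.96 over the 500 early rows (numbers of up to 3 digits), and 73.6%, 81.8% and 93% were tested. With shNeg, 35 of 108 tested later rows were higher and 1 lower in spheroids, and 57 of 465 early rows were higher and 162 lower. These classes are described, and their difference was not tested. At the edge of the rule, miR-4463 and miR-4779 (24 counts each) and miR-4670-3p (25) lay just inside, and miR-4743-5p and miR-4768-5p (23 each) and miR-4749-3p (22) just outside. A member at this edge could still be called, as miR-4463 had no count with adherent shNeg and 8, 1, 3 and 2 with spheroid shNeg (at least 16.3-fold higher, FDR 0.000331, or at least 9.04-fold without replicate 1, FDR 0.00294). But spheroid shNeg gave 14 of its 24 counts, and it had passed the filter through spheroid libraries alone. The rule and the filter thus both favored a higher value there, and it could hardly have been called lower.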

How the data were processed

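The authors made OV90 small RNA libraries with a QIAseq kit (whether reads were collapsed by molecular index is not given in the sources used here), ran Cutadapt for the adapters and quantified miRBase miRNAs by miRDeep2. The deposited table is titled as CPM, but holds estimated counts of each mature miRNA whose totals differ between libraries. Of the non-zero values 3.04%, none of them of a member, were not whole (tolerance 1e-06) and were rounded. Counts of all 24 libraries were scaled by TMM and fitted in R 4.3.3 with edgeR 4.0.16 (quasi-likelihood F test, 6 groups as the only term, common dispersion 0.0888). DESeq2 1.42.0 and limma 3.58.1 on log2(CPM + 1) were alternatives. A standard error is the size of the log2 difference over the square root of F. P-values measure the spread between replicates, whose origin as separate cultures is not given. Scripts were tested on simulated data. The members, lists and tests were chosen with earlier results of these data known. Named members are the 15 most abundant, up to 8 calls of highest and up to 8 of lowest log2 fold change in each comparison (those with a mean of at least 5 CPM first) and those called in all 3 culture comparisons. Sequences and positions are from RefSeq and GENCODE on GRCh38. Marker miRNAs for muscle, mesenchyme, nerve and liver were also summed: muscle reached at most 8.40 CPM, mesenchymal markers 68.0 to 366, neural markers 23.5 to 330 and miR-122-5p 13730 to 29400.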

Additional observations from a re-analysis of the deposited data

Results flagged for a closer look

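In 115 group values of named members with at least 20 counts, 7 libraries lay far from the other 3 of their group by Dixon's test at 95%, which chance gives in about 1 in 20. miR-4706 (38.1 CPM, others 2.05 to 3.05) and miR-4525 (26.4, others 5.61 to 7.64) were both highest in spheroid shNeg replicate 1. miR-4286 was at 116 in adherent shNeg replicate 1 (others 94.7 to 97.1) and miR-4458 at 8.19 in adherent shRELB replicate 2 (others 5.69 to 5.99). miR-4742-3p was at 2.65 in adherent shRELA replicate 4 (others 1.90 to 1.98). miR-4683 was at 38.4 in spheroid shRELA replicate 1 (others 14.1 to 17.3). miR-4783-3p was lowest in spheroid shRELB replicate 3, at 4.65 (others 13.7 to 14.96).

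By the test of the difference itself, the response to knockdown was more negative in spheroids than in adherent cells for miR-4286 with RELA (-1.30 ± 0.29 SE on the log2 scale, FDR 0.00177) and RELB (-1.20 ± 0.29, FDR 0.00324). The same held for miR-4485-3p with RELA (-2.04 ± 0.52, FDR 0.00622) and miR-4713-5p with RELB (-2.43 ± 0.55, FDR 0.00197).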

How the results depend on the processing

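Named members gave 56 differences that passed the test. Over 963 values under other settings, 844 stayed past the threshold, 119 did not and 0 changed sign. Calls that passed under every setting run were 15 of 25, 10 of 15 and 9 of 11 between cultures (shNeg, shRELA, shRELB), 1 of 1 in adherent RELB knockdown, 1 of 5 and 2 of 6 in spheroid RELA and RELB knockdown, and 0 of 2 and 1 of 2 for the difference between cultures. The counts of members called moved as follows, in the order spheroid RELA, spheroid RELB and RELB between cultures where 3 are given. With library totals alone they were 8, 7 and 5, with DESeq2 8, 9 and 5, and at an FDR of 0.05 10, 12 and 5. With limma they were 8 and 12, and 1 for RELA between cultures. With a mean of at least 10 CPM they were 3, 3 and 4, and the culture counts fell to 5, 4 and 4, since fewer members were tested. At an FDR of 0.05 the culture counts were 38 (shNeg) and 20 (shRELB). With only the groups compared they were 2, 2 and 1, and 0 for RELA between cultures. Without a filter 1 member was called between cultures for each knockdown. Adherent RELB gave 2 calls with library totals, the 10 CPM mean, only the groups compared and a filter of at least 5 counts in 4 libraries. That filter, added after seeing the data, gave 3 in spheroid RELA and 14 higher and 5 lower between cultures with shNeg. Where not stated, the cause was not tested.

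Leaving out each library gave 0 calls in adherent RELA, 1 to 2 in adherent RELB, 2 to 6 in spheroid RELA, 3 to 9 in spheroid RELB, 21 to 27, 11 to 18 and 10 to 16 between cultures, and 1 to 2 (RELA) and 1 to 4 (RELB) for the difference between cultures. Without spheroid shNeg replicate 1 these were 0, 1, 3, 6, 24, 18, 16, 2 and 4. Library totals shifted the median of all miRNAs by 0.43 between cultures with shNeg and by -0.35 and -0.26 in spheroid RELA and RELB knockdown. Median-ratio size factors shifted these by 0.12, -0.10 and -0.14. The spheroid RELB split of 2 higher and 4 lower became 0 and 7 with totals and 1 and 6 with size factors, and the shRELA culture split of 12 and 3 became 11 and 5 with size factors. With limma the shNeg culture split was 14 and 8, and without a filter 19 and 7. The share of counts without miR-4286 came to 0.0315%, 0.0364% and 0.0378% for adherent shNeg, shRELA and shRELB, and for spheroids to 0.0625%, 0.0373% and 0.0358%.

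Samples with the same replicate number did not deviate together (correlations of -0.245 to 0.136), and the main fit did not pair them. Counting error at low counts can lower such correlations, so they cannot show that the samples were unpaired. With the replicate block spheroid RELA had 2 calls, spheroid RELB 4 and the culture comparisons 22, 11 and 11. At 1 CPM a library held 0.959 to 8.28 reads, so depth limits the 53 members below that level.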
